A study of Homo sapiens with 6 samples.

Results

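The 5′ UTR bins are the first 100 of the 400 bins into which each messenger was divided in 3 tables of ribosome footprints from CHL-1, a human melanoma cell line. They were taken from every messenger, listed by its RefSeq NM_ identifier, that appears in all 3 tables, which gave 17641 transcripts of 20708 listed in any table. The first table comes from CHL-1 cells given AZC (L-azetidine-2-carboxylic acid, an analogue of proline) at 10 mM with MG132, an inhibitor of the proteasome, at 20 µM for 20 minutes. The second comes from untreated CHL-1 cells edited by CRISPR at SNORD50A/B, a pair of small nucleolar RNA genes, and the third from untreated parental CHL-1 cells. Each condition has 2 libraries, 1 of them labelled as having its rRNA removed, but 1 table, and the labels do not state how both libraries entered it. The study has no CRISPR line edited elsewhere as a control, the labels do not say whether the edited cells are 1 clone, and the lysis buffer of all cells held cycloheximide, a blocker of elongation. With 1 table per condition there is no replicate spread, so differences between tables are given as sizes without a test, and the edit cannot be told apart from other differences between the lines. AZC and MG132 were given together and cannot be told apart from each other, nor the treatment from a difference between libraries.

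The 5′ UTR is the stretch of a messenger between its cap and its start codon. The small ribosomal subunit enters at the cap and scans along it, so most footprints lie downstream, but many 5′ UTRs hold short upstream reading frames (uORFs) on which whole ribosomes form and leave footprints. In stress messengers such as ATF4 these frames hold back the main reading frame, and phosphorylation of the initiation factor eIF2 lets more ribosomes reach it. Messengers of ribosomal proteins and elongation factors instead begin with a run of pyrimidines just after the cap (the TOP motif) through which mTOR controls their translation.

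Of 7 melanocyte markers, SOX10 stood out, with coding depth of 255.1 per 1000000 of the table's total in treated cells, 293.6 in CRISPR cells and 327.7 in parental cells. S100B had 29.6, 27.9 and 24.2 in the same order, while MITF, DCT and PMEL were at 13.5 or less in every table, MLANA had no coding depth and TYR had no row. Of 10 markers of keratinocytes, fibroblasts, immune and endothelial cells, 9 had no row in any table. PTPRC was listed in the CRISPR table only, with coding depth of 2.26 per 1000000 and no depth in its 5′ UTR.

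The first bases after the RefSeq gene start (GRCh38.p14) of 8 messengers are shown because these starts are referred to below. Whether depth in these messengers depends on the marked bases was not tested. The start of the deposited row may lie elsewhere, and the files give no sequence. In the first 2, capitals mark an upstream reading frame that begins with ATG and ends at the first stop codon in its frame. In the next 3, capitals mark an upstream ATG. In the last 3, capitals mark the unbroken run of C and T at the start.
AMD1, chr6:110874787-110874816, plus strand: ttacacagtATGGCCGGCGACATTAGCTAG
ATF4, chr22:39520571-39520600, plus strand: tttgcccgcccacagATGTAGttttctctg
SLC35A4, chr5:140564828-140564857, plus strand: aagttcggcggggaagATGgcggatgacaa
DDIT3, chr12:57520465-57520494, minus strand: gcactgagcgtatcATGttaaagatgagcg
PPP1R15A, chr19:48872441-48872470, plus strand: cagttgttgatcttATGcaagacgctgcac
EEF2, chr19:3985434-3985463, minus strand: CTCTTCCgccgtcgtcgccgccatcctcgg
RPS19, chr19:41860255-41860284, plus strand: CCCTTTCCCCTggctggcagcgcggaggcc
RPS24, chr10:78033863-78033892, plus strand: CTCTTTTCCTCCTTggctgtctgaagatag

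Depth is taken as the number of footprint bases that a bin holds, summed over its bases, which was inferred from the values and is not stated in the labels. In units of 1000000, the 5′ UTR bins of the 17641 transcripts in treated cells held 57.6, those of CRISPR cells 62.2 and those of parental cells 47.2. Rows at 0 throughout the 5′ UTR numbered 1593, 3378 and 1908 in the same order, so the CRISPR table was the sparsest although its total was the largest. A pair of transcripts without a gene name (NM_001190452 and NM_001190489) alone held 12.7% of the 5′ UTR depth in treated cells, 8.00% in CRISPR cells and 11.6% in parental cells. Sums over all rows were therefore set beside values taken per transcript. A transcript was measured where its coding depth was at least 3000 in each table and its 5′ UTR depth summed over the tables at least 900, which 8592 of the 17641 transcripts (4890 genes) met. Of the others, 6390 missed the coding minimum and 2659 only that of the 5′ UTR, the nearest of them at 898 and the lowest measured transcript at 900. The 5′ UTR was at 0 in all 3 tables for 44 of the 1814 transcripts with coding depth of at least 30000, among them HSPA8, the constitutive HSP70, whose coding depth was 1242930 in the AZC + MG132 table. The cause of these empty rows was not tested.

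How the bins were laid out set what part of a messenger they show. Neighbouring bins alternate between 2 sizes in a pattern that gives the number of bases spanned, and in many messengers with a short 5′ UTR the 100 bins spanned more bases than the 5′ UTR holds. ACTB (β-actin) reached coding depth near base 84 of 119 spanned, EEF1A1 near base 63 of 159, and RPS6 near base 42 of 238. Past that base, depth in the 5′ UTR bins repeated the depth of the same messenger's first coding bins, with a median difference of 0.06 on the log2 scale in ACTB. Such a repeat (a median difference under 0.2, with the start at base 90 or before) was found in 1677 of 9917 transcripts searched, or 16.9%, against 1.48% when another gene's 5′ UTR bins were put in place of its own. In 88.3% of those with an inferred span, the span times the start base lay within 2% of 10000. The search tried start bases with about this product first and kept one that matched, so this share was largely set by the search. These transcripts made up 17.2% of those measured, and they held 37.0% of the measured 5′ UTR depth in treated cells, 39.0% in CRISPR cells and 39.2% in parental cells. They included 50 of 85 ribosomal protein genes, 26 of 32 replication-dependent histones and 32 of 69 respiratory chain genes. For them the 5′ UTR to coding ratio holds coding depth on both sides, and the main values below are given with and without them. Transcripts in which no repeat was found are called clear of coding sequence below, although some may still hold coding depth.

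**Figure D1:**
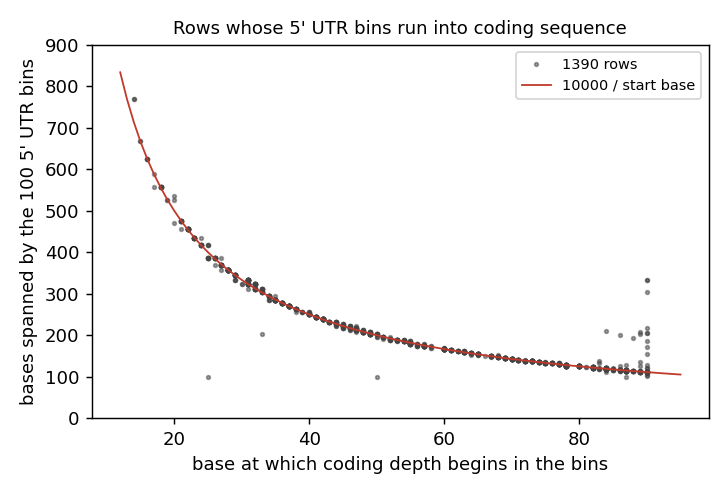
Each point is 1 of 1390 transcripts whose 5′ UTR bins repeat their own coding depth and whose span could be inferred. The horizontal axis is the base at which coding depth begins, the vertical axis the number of bases spanned by the 100 bins, and the line is 10000 divided by the start base. Start bases near the line were tried first and kept where they matched, so the place of points on the line was largely set by the search.

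Among measured genes with a name, the highest 5′ UTR levels came from such messengers. In the order treated, CRISPR and parental, histone H4C14 had a 5′ UTR level (depth per 1000000 of the table's total) of 2257, 1322 and 1468, and its 5′ UTR depth was 110% of its coding depth in each table. Its copy H4C15 had the same values, and near-identical histone genes can share reads. H3C14 had 2012, 1077 and 1133, H2BC21 1143, 551 and 569, and H2AC18 1020, 629 and 535. EEF1A1, which carries aminoacyl-tRNA to the ribosome, had 999.6, 988 and 677, RPL7 478, 566 and 549, and RPL23A 486, 581 and 524. All 10 of the highest 5′ UTR levels of these genes in parental cells belonged to transcripts whose bins repeat coding depth.

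Treated cells were compared with parental cells to see how footprints lay relative to the start codon in cells given a short proteotoxic stress. The 5′ UTR depth of the median measured transcript was 14.4% of its coding depth in treated cells, 8.36% in CRISPR cells and 7.31% in parental cells. Within transcripts, the 5′ UTR to coding ratio of treated over parental cells had a median log2 change of 0.88 (interquartile range 0.38 to 1.41), which is 1.83-fold, and 7579 of 8592 transcripts lay above 0. At 2-fold or more, 3752 transcripts (43.7%) were higher and 127 (1.48%) lower in treated cells. Without the transcripts whose bins repeat coding depth, the median change was 0.94 (0.44 to 1.47) over 7110 transcripts, with 47.1% higher and 1.6% lower. In the 1482 that repeat it, the median was 0.59. Over sums of all rows the ratio was 20.1% in treated cells and 11.7% in parental cells, a fold of 1.72.

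The 5′ UTR side and the coding side both entered this change. Per 1000000 of the table's total, 5′ UTR depth per transcript was a median of 1.69-fold higher in treated cells (log2 0.76, interquartile range 0.23 to 1.28), while coding depth was at a median log2 change of -0.14. Without the transcripts that repeat coding depth these were 1.74-fold and -0.16. The size depended on which coding bins it was set against. Against the first 20 coding bins alone, next to the start codon, the median log2 change was 0.32 and the fold of sums 1.11. Depth in these first coding bins was itself higher in treated cells, at 15.7% of coding depth against 10.1% in parental cells, summed over 6994 named transcripts clear of coding sequence and without the top 1%.

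In CRISPR cells the 5′ UTR to coding ratio stood close to that of parental cells. The median log2 change was 0.15 (interquartile range -0.35 to 0.67), with 5104 of 8592 transcripts above 0. At 2-fold or more, 1308 (15.2%) were higher and 934 (10.9%) lower in CRISPR cells, and with a depth minimum 4 times higher these counts were 215 and 87 of 2842 transcripts. Leaving out the transcripts that repeat coding depth gave a median of 0.20, with 1187 (16.7%) higher and 793 (11.2%) lower of 7110. Over sums the ratio was 12.6% in CRISPR cells and 11.7% in parental cells, a fold of 1.08, which turned to 0.962 against the first 20 coding bins. The median measured transcript had depth in 56 of its 100 5′ UTR bins in the treated, 37 in the CRISPR and 51 in the parental table. Its 5′ UTR depth was 1584, 1659 and 1189 in the same order, so the CRISPR table held more depth than the parental table in fewer bins. The part of this sparseness in the counts past 2-fold was not tested.

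Set directly against CRISPR cells, treated cells had a ratio higher by a median log2 change of 0.69 (interquartile range 0.15 to 1.33), with 81.5% of transcripts above 0, and a median of 0.73 without the transcripts that repeat coding depth. At 2-fold or more, 3135 (36.5%) were higher and 278 (3.24%) lower in treated cells. The 3 comparisons share tables, so they are not independent of each other.

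**Figure D2:**
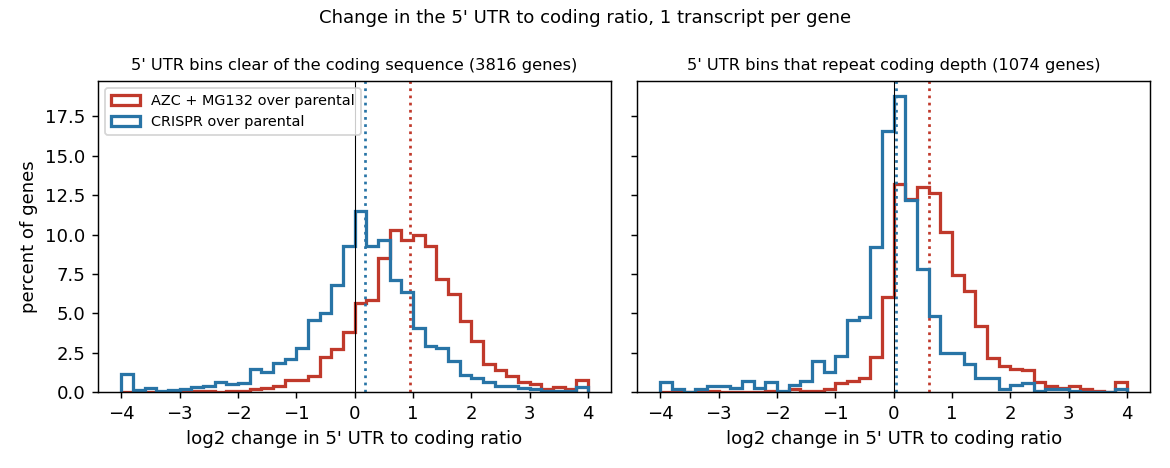
Histograms of the log2 change in the 5′ UTR to coding ratio for 4890 genes, with 3816 genes whose bins are clear of coding sequence on the left and 1074 whose bins repeat coding depth on the right. The vertical axis is the percent of genes, dotted lines are medians, and values beyond 4 in size are drawn in the end bars. On the left the treated distribution is centred at 0.95 and the CRISPR distribution at 0.18.

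Along the 5′ UTR, depth was highest next to the start codon in every table, and less so in treated cells. The last 10 bins held a mean of 24.6% of a transcript's 5′ UTR depth in treated cells, 30.5% in CRISPR cells and 29.2% in parental cells. The first 10 bins held 3.16%, 2.56% and 2.36%, and the first 50 bins 31.4%, 26.5% and 26.4%. The depth-weighted mean bin of the median transcript was 65.2 in treated, 69.9 in CRISPR and 68.9 in parental cells. Within transcripts the mean bin in treated cells lay a median of 3.18 bins nearer the cap than in parental cells, with 5827 of 8559 transcripts in that direction. In CRISPR cells the median difference from parental cells was 0.0982 bins, with 49.1% of transcripts nearer the cap. Without the transcripts that repeat coding depth, the last 10 bins held 26.8%, 33.5% and 31.8%, and the median shift in treated cells was -3.11 bins.

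The difference in treated cells was present in every window of 10 bins along the leader. Relative to coding depth, summed over 6994 named transcripts clear of coding sequence and without the top 1%, depth in bins 31 to 40 of the 5′ UTR was 0.982% in treated cells and 0.442% in parental cells, a fold of 2.22. In the last 10 bins it was 2.87% and 1.76%, a fold of 1.63, and in the first 10 bins 0.400% and 0.217%, a fold of 1.85. CRISPR over parental cells lay between 1.12-fold and 1.24-fold in every window of 10 bins. The start of the leader was also reached in more transcripts, with depth in the first 10 bins of 31.6% of transcripts in treated cells, 18.3% in CRISPR cells and 26.6% in parental cells. When depth was summed over transcripts in place of a mean per transcript, the last 10 bins held 16.1% in treated, 20.2% in CRISPR and 18.4% in parental cells.

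**Figure D3:**
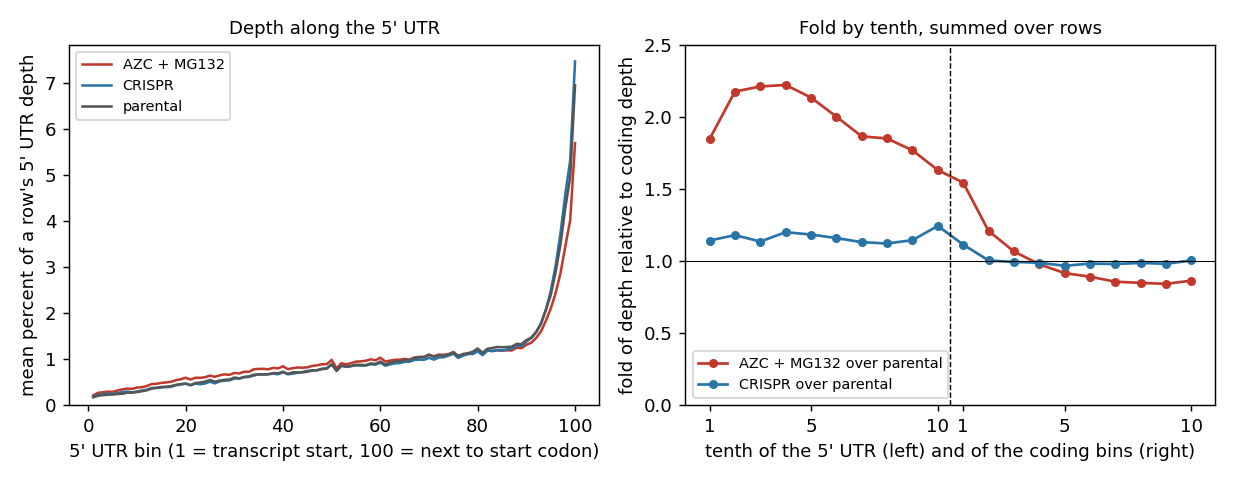
Left, the mean percent of a transcript's 5′ UTR depth in each of 100 bins from the transcript start to the start codon, over transcripts that do not repeat coding depth. Right, the fold over parental cells of depth relative to total coding depth, in windows of 10 bins of the 5′ UTR and, right of the dashed line, of 20 coding bins. The AZC + MG132 points stand at 2.22 in bins 31 to 40 of the 5′ UTR and 1.63 in the last, and the CRISPR points left of the dashed line between 1.12 and 1.24.

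The number of bases spanned by the bins could be inferred for 4388 measured transcripts whose bins did not repeat coding depth. This span was taken as the length of the 5′ UTR, with a median of 221 bases. Repeats of coding depth were called only for start bases up to 90. The class of 100 to 149 bases may therefore hold shorter 5′ UTRs whose bins run into coding sequence. The change in treated cells was found in every length class. Its median log2 was 1.08 at 100 to 149 bases (1049 transcripts), 0.99 at 200 to 299 bases (1270) and 0.85 at 500 to 1499 bases (211). The ratio itself went with length, and the cause was not tested. It was 8.50% in treated cells, 4.97% in CRISPR cells and 4.04% in parental cells at 100 to 149 bases, and 32.2%, 20.0% and 18.2% at 500 to 1499 bases. Per base the order was the opposite. The median depth per base, per 1000000 of the total, was 0.0269, 0.0171 and 0.0146 in the shortest class. It was 0.0143, 0.0124 and 0.00969 in the longest. How far coding depth in the bins of the shortest class entered this order was not tested.

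Sequence at the cap was set beside these values for 3175 genes with a RefSeq start and bins clear of coding sequence. ATG on the messenger strand within the first 50 bases was present in 28.9% of them, against 40.7% of all 27305 starts in the RefSeq table. These sets are unlike, because the first leaves out short 5′ UTRs whose start codon can itself lie in these bases. An upstream ATG was not told apart from the start codon, and how far this entered the shares was not tested. Genes with ATG in these bases had a median 5′ UTR to coding ratio of 14.3% in treated, 8.60% in CRISPR and 7.50% in parental cells, and genes without it 11.5%, 6.84% and 5.77%. The median log2 change in treated cells was 0.84 with ATG and 0.99 without. A start of C followed by at least 4 C or T was present in 6.27% of these genes and 4.04% of all starts. Those genes had a median change of 0.88, against 0.96 for the rest. By GC content of the same 50 bases, the median change was 0.93 in the lowest of 3 classes (24.0% to 62.0% GC), 1.05 in the middle and 0.86 in the highest (from 72.0%).

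Among messengers with uORFs known from the integrated stress response, the ratio of ATF4 went against the general change. ATF4, the transcription factor at the centre of that response (NM_001675), had a 5′ UTR level of 332.5 in treated cells, 178.3 in CRISPR cells and 101.1 in parental cells. Its coding level was 691.9, 51.8 and 33.5, so 5′ UTR depth was 3.29-fold higher in treated than in parental cells and coding depth 20.6-fold higher. Messenger amount was not measured here, so differences in level, in this and other messengers, do not separate it from translation. The 5′ UTR to coding ratio was 48.1% in treated cells, 344% in CRISPR cells and 301.5% in parental cells, a log2 change of -2.65 for treated cells. Within the leader, the first 20 bins held 80.8% of the depth in treated, 86.9% in CRISPR and 84.6% in parental cells, and the highest bin was bin 3 in each. The start-stop frame printed above begins at base 28 of the RefSeq gene start. The span of the ATF4 bins could not be inferred, so bin 3 cannot be placed against that base. The other row of the gene, NM_182810, gave ratios of 48.0%, 344% and 298.3%.

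DDIT3, a pro-apoptotic factor induced through ATF4, did not meet the coding minimum, nor did PPP1R15A and ATF5. Their values are given without a place in the counts. DDIT3 had a 5′ UTR level of 23.7 in treated cells, 5.94 in CRISPR cells and 4.88 in parental cells, and a coding level of 28.98, 4.08 and 1.90. The ratio was 81.6% in treated, 145.5% in CRISPR and 257.4% in parental cells. In its leader 97.5%, 88.4% and 96.6% of depth lay in the first 40 bins. PPP1R15A, which directs the removal of the phosphate from eIF2, had a 5′ UTR level of 14.2, 1.36 and 2.16 and a coding level of 30.4, 1.44 and 3.48 in the same order. Bins 21 to 30 of its leader held 45.6% of the depth in treated cells, 25.2% in CRISPR cells and 12.3% in parental cells. These shares rest on unequal 5′ UTR depths of 5197, 795 and 1023, and the highest bin was bin 25, 44 and 85 in the same order. ATF5 had a 5′ UTR level of 19.3, 9.42 and 13.7 and a coding level of 21.8, 4.36 and 8.17.

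Of 13 genes on this list, 12 were listed and 7 measured. In treated cells 2 of the 7 were 2-fold or more higher, EPRS1 and SLC7A1, and 2 lower, ATF4 and IFRD1, beside 43.0% higher and 1.66% lower among all 4890 measured genes. The list's median change was 0.53, against 0.85 for all genes. EPRS1, an aminoacyl-tRNA synthetase, had a ratio of 4.36% in treated cells, 2.27% in CRISPR cells and 1.59% in parental cells. IFRD1, a transcriptional coregulator with a uORF, had 30.9%, 95.2% and 64.5%, a log2 change of -1.06, with a 5′ UTR level of 26.3 in treated, 27.4 in CRISPR and 13.8 in parental cells. PPP1R15B, the constitutive partner of the eIF2 phosphatase, had a ratio of 51.1%, 32.2% and 42.0%. None of the 7 was past 2-fold in CRISPR cells, where 14.5% of genes were higher and 10.7% lower.

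SLC35A4, a messenger whose upstream frame encodes a small mitochondrial protein, carried more depth in its leader than in its coding sequence in all 3 tables. Its 5′ UTR level was 18.3 in treated cells, 13.8 in CRISPR cells and 12.02 in parental cells, and its coding level 4.42, 0 and 0.794, too low for a measured ratio. The first 50 bins held 82.3%, 93.3% and 88.1% of the leader's depth. The ATG printed above is at base 17, but the span of the SLC35A4 bins could not be inferred, so they cannot be placed against it. In MIEF1, whose upstream frame also encodes a mitochondrial protein, the ratio was 96.3% in treated, 53.7% in CRISPR and 88.2% in parental cells.

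Messengers of polyamine metabolism differed from each other. AMD1, an enzyme of spermidine and spermine synthesis whose short upstream frame stalls ribosomes when polyamines are plentiful, had a 5′ UTR level of 9.14 in treated cells, 6.08 in CRISPR cells and 12.1 in parental cells. Its ratio was 42.7%, 33.5% and 73.9%, lower than in parental cells in both, with log2 changes of -0.79 and -1.14. The first 20 bins held 81.0% of the leader's depth in treated, 75.9% in CRISPR and 90.9% in parental cells. The highest bin was bin 10 in each table, which with the inferred span of 322 bases covers bases 29 to 32. In the printed sequence the frame runs from base 12 to base 32 and has 6 codons before its stop, so the highest bin holds the stop codon of the frame, if the row begins at the RefSeq gene start.

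ODC1, the first enzyme of the pathway, had a ratio of 29.5% in treated cells, 9.45% in CRISPR cells and 9.49% in parental cells, a log2 change of 1.64 in treated cells. Its 5′ UTR level, 10.4, 17.3 and 12.4, was no higher in treated cells, while its coding level was 35.3, 183.2 and 130.9. AZIN1, the antizyme inhibitor, behaved in the opposite way, with a ratio of 105.5%, 188% and 195.1%, a 5′ UTR level of 151.9, 100.3 and 104.1 and a coding level of 143.9, 53.4 and 53.4. Its highest bin was bin 62 in all 3 tables.

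Of 13 other messengers with known uORFs, 9 were measured, and the list's median change in treated cells was 0.80. At 2-fold or more, 3 were higher, CDKN1B, MDM2 and ODC1, and none lower, beside the same 43.0% and 1.66%. CDKN1B, a cell cycle inhibitor, had one of the 10 highest changes named below, with a ratio of 148.8% in treated cells, 65.3% in CRISPR cells and 19.6% in parental cells. EIF5, an initiation factor that controls start codon choice, had 72.6%, 51.4% and 38.6%. EIF4G2, an initiation factor whose main frame begins at GTG, had a 5′ UTR level of 131.6 in treated cells, 58.3 in CRISPR cells and 59.0 in parental cells. Bins 31 to 50 held 73.9%, 67.8% and 63.2% of its leader's depth, and its ratio was 31.3%, 17.6% and 17.9%.

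**Figure D4:**
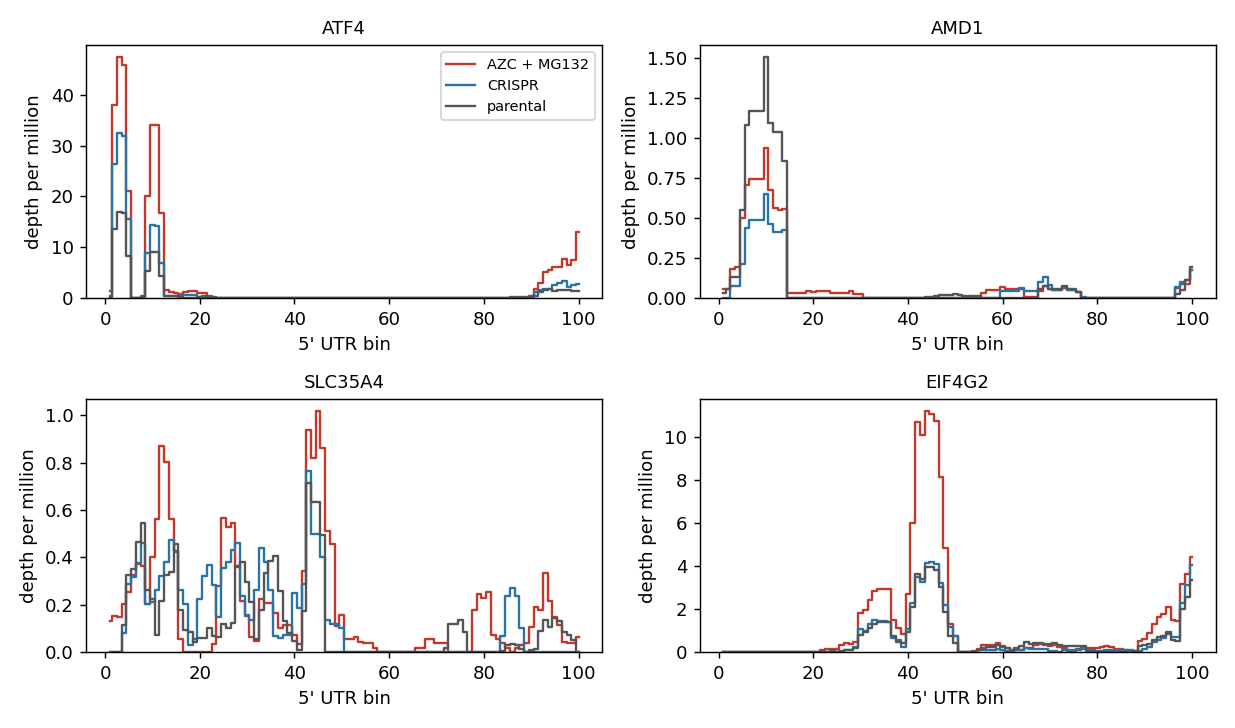
Depth per 1000000 of the table's total in each of the 100 5′ UTR bins of ATF4, AMD1, SLC35A4 and EIF4G2, from the transcript start on the left to the start codon on the right. Colours are the 3 tables. ATF4 is highest in bin 3 and AMD1 in bin 10 in all of them, and SLC35A4 holds 82.3% to 93.3% of its depth in the first 50 bins.

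A further list held messengers with starts at codons other than AUG, upstream or, as in EIF4G2, at the main frame. Its median change was 1.49 in treated cells over 6 measured of 11. Of the 6, 5 were 2-fold or more higher (MYC, POLG, TEAD1, FXR2 and DDX17), beside 43.0% of all 4890 measured genes and 47.4% of the 3816 clear of coding sequence. MYC, a transcription factor of growth, had a 5′ UTR level of 17.6 in treated cells, 7.10 in CRISPR cells and 8.71 in parental cells, with a ratio of 19.3%, 8.65% and 8.77%. TEAD1, a transcription factor of the Hippo pathway, had a ratio of 67.0%, 11.2% and 15.5%. In CRISPR cells the list's median was -0.25, with 1 of the 6 lower at 2-fold or more, beside 10.7% of all genes. It was DDX17 at -1.91 on a 5′ UTR depth of 133, against 519 in parental cells. Of messengers sensitive to the cap-binding factor eIF4E, 7 of 10 were measured, with a median change of 1.13 and 4 higher in treated cells, near the 43.0% of all genes. CCND1 (cyclin D1) had a ratio of 11.6% in treated, 5.98% in CRISPR and 3.23% in parental cells.

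Chaperone messengers differed in how far leader and coding depth moved in treated cells. HSPA1A, an inducible HSP70 that can share reads with its copy HSPA1B, had a 5′ UTR level of 27.8 in treated cells, 2.73 in CRISPR cells and 1.55 in parental cells. Bins 41 to 60 held 97.7%, 100% and 96.2% of that depth. Its coding level was 566.8, 127.8 and 160.5, so 5′ UTR depth was 17.9-fold and coding depth 3.53-fold higher in treated than in parental cells. HSP90AA1, the stress-inducible HSP90, had a 5′ UTR level of 114.7, 39.9 and 26.9 with a coding level of 3393, 2988 and 2942. HSPD1, the mitochondrial HSP60, had 24.2, 5.62 and 5.72 with a coding level of 1224, 1960 and 1497. HSPA5, the HSP70 of the endoplasmic reticulum, had 238, 104.0 and 89.1, with its highest bin at bin 30 in all 3 tables. Of 15 chaperones 13 were measured and all 13 were above 0 in treated cells, with a median change of 0.999 and 6 past 2-fold, all higher. Among all genes 87.7% were above 0, with a median of 0.85, and 43.0% were 2-fold or more higher, so these counts lie near the general share. Without the 1 chaperone that repeats coding depth, the median of 12 was 1.13. In CRISPR cells the median was 0.27, and HSPA1A was the only 1 of the 13 past 2-fold, higher, beside 14.5% of all genes.

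Immediate early genes, which are transcribed first after a stimulus, had a median change of 1.21 in treated cells over 8 measured of 21, with 5 higher at 2-fold or more, beside 43.0% of all genes. Without the 1 that repeats coding depth, 4 of 7 were higher, beside 47.4% of genes clear of coding sequence, and the median was 1.16. DUSP1, a phosphatase of MAP kinases, had a 5′ UTR level of 6.16 in treated cells, 2.25 in CRISPR cells and 0.519 in parental cells. BTG1, an antiproliferative factor, had 24.8, 12.8 and 11.1, with a ratio of 108.1%, 71.1% and 54.5%. DUSP2, whose bins repeat coding depth, had 7.80 in treated, 0 in CRISPR and 0.768 in parental cells.

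Among TOP messengers the bins split by leader length. Of 86 ribosomal protein genes listed, 85 were measured, with a median change of 0.68 in treated cells, 25 higher and 1 lower at 2-fold or more. In the 35 that were clear of coding sequence the median was 0.82, with 15 higher and 1 lower, beside 47.4% higher and 1.91% lower among the 3816 genes clear of it. A few of the 35 may still hold coding depth, since RPS27 had a ratio of 106.7% in treated, 103.6% in CRISPR and 103.9% in parental cells. RPS19 had a 5′ UTR level of 14.8 in treated cells, 14.3 in CRISPR cells and 2.79 in parental cells, with a ratio of 3.35%, 1.87% and 0.371%. The lower one was RPS24, with a 5′ UTR level of 11.9, 82.0 and 62.8, and a ratio of 3.82%, 12.4% and 11.6%. Both begin with an unbroken pyrimidine run at the RefSeq gene start, 11 bases long in RPS19 and 14 in RPS24.

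Other TOP messengers had a median change of 0.98 over 16 measured of 18, all above 0 in treated cells, beside 87.7% above 0 and a median of 0.85 among all genes. In the 10 clear of coding sequence the median was 1.20, against 0.95 for the 3816 genes clear of it. EEF2, the translocase of elongation, had a 5′ UTR level of 179.1 in treated cells, 105.9 in CRISPR cells and 73.1 in parental cells, and a ratio of 14.7%, 5.88% and 4.46%. PABPC1, the poly(A)-binding protein, had a lower 5′ UTR level in treated cells, at 11.9 against 36.2 in CRISPR and 26.9 in parental cells. Its coding level was 52.1, 317.5 and 337.4, so its ratio of 22.8% in treated cells stood above the 11.4% of CRISPR and the 7.97% of parental cells. EEF1G had the highest change of this list, 4.13, on a parental 5′ UTR depth of only 65. EIF4B and TPT1 were listed but not measured.

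Replication-dependent histones had a median change of 0.23 in treated cells over 32 measured, with 2 higher at 2-fold or more (H2AC6 and H1-4) and 26 above 0, beside 43.0% higher and 87.7% above 0 among all genes. Both of these genes repeat coding depth. The 6 histones not called as repeats had a median of 0.0060 with none past 2-fold. Their median ratio was 103.7% in treated, 102.35% in CRISPR and 102.1% in parental cells, so they may still hold coding depth. Respiratory chain genes had a median of 0.60 over 69, and of 0.80 over the 37 clear of coding sequence, with 14 of the 37 higher at 2-fold or more, beside 47.4% of genes clear of coding sequence. Some of the 37 may still hold coding depth, since UQCRH had a ratio of 107.85% in treated, 84.9% in CRISPR and 78.6% in parental cells. NDUFV1, a subunit of complex I, had a 5′ UTR level of 19.1 in treated cells, 5.15 in CRISPR cells and 3.601 in parental cells. Of 6 messengers with an iron-responsive element, 2 were measured. FTH1, the ferritin heavy chain, had a ratio of 19.8% in treated, 11.5% in CRISPR and 7.82% in parental cells at a 5′ UTR level of 7.26, 6.73 and 6.52. Among RAS and prenylation genes 4 of 8 were measured with a median of 0.35 and none past 2-fold in treated cells, beside 43.0% higher and 1.66% lower among all genes. NRAS had a 5′ UTR level of 7.51 in treated cells, 10.3 in CRISPR cells and 5.29 in parental cells. FNTA, a farnesyltransferase subunit whose bins repeat coding depth, was the 1 member lower at 2-fold or more in CRISPR cells, beside 10.7% of all genes, with a log2 change of -1.32.

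Of messengers used as controls, GAPDH had a 5′ UTR level of 134 in treated cells, 94.97 in CRISPR cells and 58.3 in parental cells, with a ratio of 6.70%, 3.72% and 2.39%. The last 10 bins held 56.5%, 80.0% and 74.6% of its leader's depth. ACTB had 516.1, 307.8 and 244.0, with bins that run past its start codon. SOX10, the lineage factor, had 62.0, 55.6 and 62.0, with a ratio of 24.3%, 18.9% and 18.9%.

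**Figure D5:**
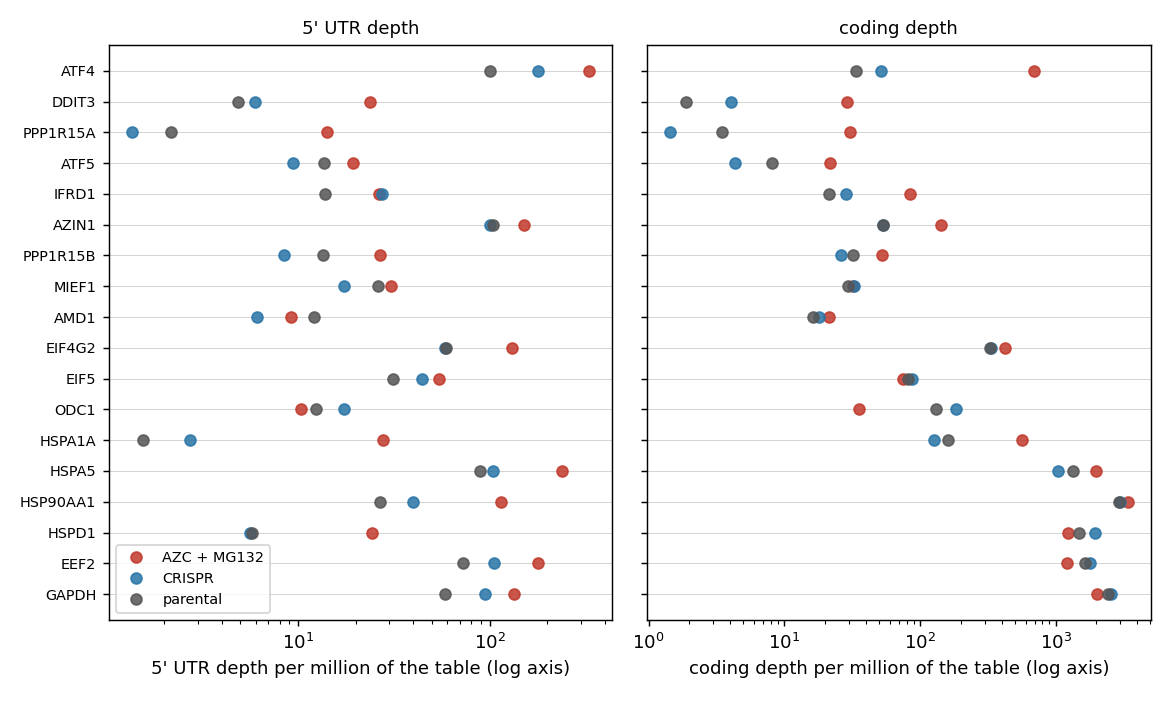
Depth per 1000000 of the table's total in the 5′ UTR bins (left) and coding bins (right) of 18 named messengers, on log axes, with 1 point per table. ATF4 stands at 332.5 in its 5′ UTR and 691.9 in its coding bins in the AZC + MG132 table, against 101.1 and 33.5 in the parental table.

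Among genes above the median of summed 5′ UTR depth, the highest changes of the ratio in treated over parental cells were in MYL6, a myosin light chain, at a log2 change of 3.97, UTP3, a ribosome biogenesis factor, at 3.77, RPS19 at 3.15, GFM1, a mitochondrial elongation factor, at 3.06, and AP2B1 at 3.06. COPG1, CCT6A, CDKN1B, EFTUD2 and VDAC3 followed, at 2.83 to 2.95. MYL6 had a 5′ UTR depth of 4065 in treated cells, 615 in CRISPR cells and 229 in parental cells, and its coding level differed little, at 244.0, 189.5 and 188. The lowest were STK32B, a kinase whose bins repeat coding depth, at -3.13, CENPB, a centromere protein, at -2.73, and ATF4 at -2.65. STK32B had a 5′ UTR depth of 235 in treated, 1128 in CRISPR and 4273 in parental cells, and CENPB 307, 818 and 3471. KXD1, TXNL4A, RPS24, SCARB2, MAP2K2, FAM72A and STEEP1 had log2 changes of -1.85 to -1.06.

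In CRISPR over parental cells the highest were UTP3 at 2.66, MAGOH, a subunit of the exon junction complex, at 2.55, EFTUD2 at 2.503, UFC1 at 2.31 and RPS19 at 2.30. NT5C2, ITGA7, NUS1, ZMIZ1 and AP2B1 followed at 1.84 to 2.21. The lowest were COP1, a ubiquitin ligase, at -2.86 and ATP6V0B, a proton pump subunit, at -2.78, then STK32B, WDR75, CENPB, URI1, ORC6, ME2, SMNDC1 and HGH1 at -2.57 to -1.75. Of the genes named here, NT5C2, STK32B, WDR75, ORC6 and HGH1 have bins that repeat coding depth. Without such genes UGDH at 1.78 joined the highest, and DCUN1D5, PPM1B, SLC25A39 and PXDN at -1.71 to -1.67 joined the lowest. COP1 had a 5′ UTR depth of 487 in CRISPR cells, against 2184 in parental cells, and covered 29 bins against 62. UTP3, EFTUD2, AP2B1, RPS19, CENPB and STK32B were named in both comparisons, which share the parental table, and UTP3 had a 5′ UTR depth of 185 there. Parental 5′ UTR depth was also low in MAGOH (433), EFTUD2 (324), AP2B1 (414), NT5C2 (528), ITGA7 (525) and NUS1 (535). The median measured transcript had 1189 in parental cells, RPS19 1320 and UGDH 1400. Genes were kept on 5′ UTR depth summed over the tables, so a low depth in 1 table did not leave a gene out.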

How the data were processed

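Ribosome footprint libraries of CHL-1 cells were read from 3 deposited tables, 1 per condition. The values the authors deposited are log2(x + 1) with 2 decimals, per the values, with 100 bins for the 5′ UTR, 200 for the coding sequence and 100 for the 3′ UTR. Bowtie2, TopHat2 and hg19 are named without versions, per the submitters' processing notes. How rows were chosen is not given in the labels. Depth was taken as 2 to the power of the value, less 1. Low 5′ UTR values were whole in 100% of cases in each table. Coding bins also held the deposited value of the row above, which was taken off, after which 100% were whole, against 5.23% in treated, 5.80% in CRISPR and 5.68% in parental cells before. Columns of other samples numbered 0. That x is a sum of bases was inferred from the values, the read number is unknown, and intervals were left out.

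The ratio of a transcript is 5′ UTR depth over coding depth, with a pseudocount of 30 on both in its log2 change. Levels are depth per 1000000 of a table's total, which in units of 1000000 was 367.3 in treated, 586.4 in CRISPR and 473.7 in parental cells. Gene names came from RefSeq (GRCh38.p14), and 185 of the 17641 transcripts had none. A gene is its transcript with the most depth. 3571 measured transcripts are further transcripts of a gene already measured and share its footprints. A past 2-fold call is a limit of size. Repeats of coding depth were searched for start bases from 12 up, in rows of enough depth, and the search was tested on simulated rows.

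Genes named are, per comparison with parental cells, the 10 highest and 10 lowest changes of the ratio among measured genes above the median of summed 5′ UTR depth, the 10 highest parental 5′ UTR levels, per list the 2 largest changes and 2 highest levels, and a fixed set of 20. Other members are named where a count of 5 or fewer is given, after their values were seen. Members, lists and tests were chosen with earlier results of these data known. Leaving out transcripts that repeat coding depth or have no gene name, and the first 20 coding bins as the base, were alternatives chosen after seeing the data. Computation used Python 3.11.15 with numpy 2.4.6, pandas 2.3.3 and matplotlib 3.10.9. Some genes are not reported here.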

Additional observations from a re-analysis of the deposited data

How the results depend on the processing

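Of 204 alternative values, 165 kept their direction and stayed within 1.5-fold of the reported value, 38 moved and 1 turned direction. Under this limit the median log2 change of 0.32 in treated over parental cells, against the first 20 coding bins, counted as near. Small log2 medians, as in CRISPR over parental cells, could hardly count as moved. Counts higher and lower were judged singly, so a change in which was larger was not counted as a turn. Against the first 20 coding bins the fold of summed 5′ UTR to coding ratios was 1.11 in treated over parental cells and 0.962 in CRISPR over parental cells. Transcripts past 2-fold then numbered 1908 higher and 576 lower in treated over parental cells, and 1905 and 1087 in treated over CRISPR cells. In the order treated over parental, CRISPR over parental and treated over CRISPR, higher and lower, the counts with 1 transcript per gene were 2103 and 81, 708 and 524, and 1773 and 151. With a depth minimum 4 times higher they were 1326 and 11, 215 and 87, and 907 and 17, and with no minimum 7612 and 1005, 3149 and 3730, and 7654 and 1291. Without repeats of coding depth under the looser limit of 0.4 they were 2269 and 76, 772 and 535, and 1800 and 169. These settings change how many transcripts are counted. With no minimum, more transcripts were lower than higher in CRISPR over parental cells, the reverse of the main counts. The median log2 change was then 0.011, with 50.6% of transcripts above 0, and the cause of this turn was not tested. A pseudocount of 300 gave 27 lower in treated over parental, 744 higher in CRISPR over parental and 92 lower in treated over CRISPR cells. Without the last 10 bins 228 were lower in treated over parental cells. Summed over transcripts, the last 10 bins held 16.1% in treated, 20.2% in CRISPR and 18.4% in parental cells. With levels scaled to a median ratio of 1, 984 transcripts had a 5′ UTR level 2-fold or more higher in treated over parental cells and 1331 in treated over CRISPR cells. Where the settings do not fix the number of transcripts, the cause was not tested. No paired analysis was possible because each condition has 1 table and no column per library, and no library could be left out. The number of reads behind a value is unknown.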
